A study of Mus musculus with 5 samples.

Results

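Genes that decide whether pyruvate leaves the cell as lactate or enters the mitochondrion were followed in neurospheres, floating cultures in which neural progenitors and cells derived from them grow as spheres, prepared from newborn mouse hippocampus. The 10 genes were the monocarboxylate transporters Slc16a1, Slc16a3 and Slc16a7, the chaperone Bsg, the lactate dehydrogenases Ldha and Ldhb, and the pyruvate dehydrogenase kinases Pdk1, Pdk2, Pdk3 and Pdk4. They were matched by gene symbol, were chosen by the low normalized counts of Slc16a3 in heterozygous libraries, and are 10 of the 54532 genes of the table. RNA sequencing covered 3 libraries with the genotype hGFAPCre+, Arid1b flox/+ (called heterozygous) and 2 littermate libraries with hGFAPCre+, Arid1b+/+ (called control). All 5 came from C57BL/6 mice on postnatal day 0, were grown with the growth factors EGF and FGF-2, at 20 ng/ml of either, and were collected on day 7. The cells of a mouse were spread over 2 culture wells. Both groups carry the Cre transgene, which a human GFAP promoter drives in neural progenitors and astrocytes, so the groups differ by 1 floxed copy of Arid1b, a gene for a DNA-binding subunit of the BAF chromatin-remodelling complex. The other copy of Arid1b stays in heterozygous cells, and cells in which the promoter was inactive keep both copies. Whether every library stands for a different mouse is not stated in the labels, so the p-values given here measure only the spread between these libraries, which may be technical.

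Glycolysis ends in pyruvate. Lactate dehydrogenase turns pyruvate into lactate and back, with the A subunit favouring lactate formation and the B subunit the return to pyruvate. Monocarboxylate transporters carry lactate with a proton across the plasma membrane, and in brain MCT4 (Slc16a3) is mainly a transporter of astrocytes, MCT1 (Slc16a1) of astrocytes, oligodendrocytes and endothelium, and MCT2 (Slc16a7) of neurons. Basigin (Bsg) is a membrane glycoprotein that brings MCT1 and MCT4 to the cell surface. The pyruvate dehydrogenase kinases phosphorylate and thereby switch off pyruvate dehydrogenase, the enzyme that commits pyruvate to oxidation in mitochondria.

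The promoter windows of the genes are shown first, because Slc16a3, Ldha and Pdk1 are textbook targets of the hypoxia-inducible factors, which bind a core of 5 bases read as ACGTG or GCGTG. RefSeq windows on GRCm38.p6, running from 250 bases before to 50 bases after the annotated start, were found for 8 of the 10 genes, and not for Slc16a7 and Bsg. The gene spans given below come from the GENCODE annotation, which differs. The Slc16a3 window (from 120948817) and the Ldha window (from 46845554) begin inside their spans (from 120948480 and 46841475). For Slc16a1, Ldha and Pdk2 the bases directly after the RefSeq start were not found whole in a GENCODE transcript. The windows below were chosen to set each lower member of a pair beside its partner in the transporters and dehydrogenases. Pdk1 was added as the kinase with the lowest log2 fold change in the main fit given below. They lie at chr11:120948817-120949116 (Slc16a3, + strand), chr3:104638414-104638713 (Slc16a1, + strand), chr7:46845554-46845853 (Ldha, + strand), chr6:142507908-142508207 (Ldhb, - strand) and chr2:71872974-71873273 (Pdk1, + strand). Each is written 5′ to 3′ along its gene, and the capitals mark every ACGTG or GCGTG on either strand.
Slc16a3: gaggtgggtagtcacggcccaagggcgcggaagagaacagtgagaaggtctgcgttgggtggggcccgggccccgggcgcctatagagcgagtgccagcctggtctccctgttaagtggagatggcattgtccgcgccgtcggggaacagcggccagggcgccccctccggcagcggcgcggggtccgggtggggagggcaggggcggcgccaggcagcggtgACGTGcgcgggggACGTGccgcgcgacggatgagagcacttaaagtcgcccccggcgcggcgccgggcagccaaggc
Slc16a1: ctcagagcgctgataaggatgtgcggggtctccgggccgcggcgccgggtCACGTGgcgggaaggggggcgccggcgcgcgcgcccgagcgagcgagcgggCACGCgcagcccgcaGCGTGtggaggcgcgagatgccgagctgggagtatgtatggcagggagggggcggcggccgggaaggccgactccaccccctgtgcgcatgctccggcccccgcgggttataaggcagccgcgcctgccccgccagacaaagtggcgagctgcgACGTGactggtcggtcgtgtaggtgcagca
Ldha: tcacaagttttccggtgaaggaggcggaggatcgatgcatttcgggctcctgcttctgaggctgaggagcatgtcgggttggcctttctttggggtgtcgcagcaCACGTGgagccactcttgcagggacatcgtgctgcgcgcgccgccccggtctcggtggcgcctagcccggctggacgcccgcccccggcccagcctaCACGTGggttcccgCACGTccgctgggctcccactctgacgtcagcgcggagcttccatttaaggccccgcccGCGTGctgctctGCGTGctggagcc
Ldhb: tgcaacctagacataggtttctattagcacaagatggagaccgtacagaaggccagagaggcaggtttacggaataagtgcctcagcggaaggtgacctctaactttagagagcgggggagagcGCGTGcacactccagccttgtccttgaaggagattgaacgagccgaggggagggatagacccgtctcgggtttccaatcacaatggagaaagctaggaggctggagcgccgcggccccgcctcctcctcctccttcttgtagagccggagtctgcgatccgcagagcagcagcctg
Pdk1: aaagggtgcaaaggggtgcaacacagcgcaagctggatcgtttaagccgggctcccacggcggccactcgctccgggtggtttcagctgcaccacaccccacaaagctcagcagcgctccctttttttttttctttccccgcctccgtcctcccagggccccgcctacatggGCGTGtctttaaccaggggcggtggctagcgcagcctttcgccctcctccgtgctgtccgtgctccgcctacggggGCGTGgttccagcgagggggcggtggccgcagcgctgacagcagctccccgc

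All 8 of these first windows held the core at least once on either strand, as did 43.8% of the 32851 windows of the whole table and 69.2% of the 9690 windows with at least 60% G and C. Slc16a3 had 2 copies of ACGTG, both on the gene's strand and shortly before its RefSeq start, and Pdk1 had 2 copies of GCGTG. At least 2 matches stood in 20.6% of all windows and 39.8% of the GC-rich ones. Ldha had 7 matches, a number reached by 0.301% of all windows and 0.846% of the GC-rich ones. Slc16a1, the partner of Slc16a3, had 5 matches, which 1.66% of all windows and 4.28% of the GC-rich ones reach. Ldhb and Pdk4 had 1 match each, Pdk2 had 2 and Pdk3 had 4. A palindromic CACGTG, the E-box that other factors also bind, counts as a match on each strand. It stood 2 times in the Ldha window, once in those of Slc16a1 and Pdk2, and in 7.15% of all windows. Ldha, Pdk1 and Pdk2 have a second annotated start, whose windows held 2, 0 and 0 matches. Any relation between the number of matches and the fold changes was not tested. A match is a stretch of letters and does not show that a factor binds there.

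**Figure D1:**
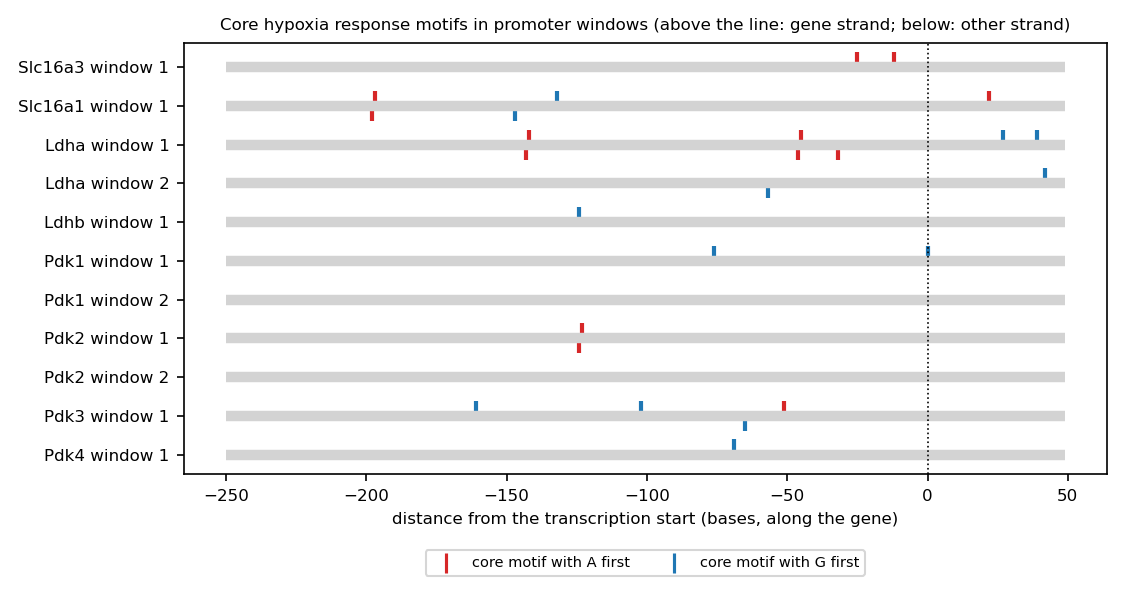
Position of ACGTG (red) and GCGTG (blue) in the promoter windows of 8 genes, with the distance from the transcription start in bases on the x axis. Marks above a line are on the gene's strand and marks below it on the other. The start is that of RefSeq. The 2 marks of Slc16a3 lie just before it, and Ldha and Slc16a1 carry 7 and 5 marks.

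Reads recovered from the deposited values numbered 19833803 to 25494722 per library. Arid1b itself had 1102, 1145 and 1003 normalized counts in heterozygous libraries, against 1510 and 1730 in controls, without passing the test (log2 fold change -0.58, SE 0.14, limma adjusted p = 0.0701). Its count takes in all exons and does not show the loss of the floxed part. Control replicate 1 stood apart from the other libraries, with correlations of log2 values across genes of 0.927 to 0.930 with the heterozygous ones, while control replicate 2 reached 0.971 to 0.974. Heterozygous replicate 2 differed from the others in sex-linked RNA, with 32809 normalized counts of Xist and no read of 4 Y-linked genes that the other libraries expressed. Neuron markers were present at summed normalized counts of 43150 to 60628 in heterozygous libraries and 28320 to 33876 in controls, astrocyte markers at 103377 to 122438 in heterozygous libraries and 150535 to 198221 in controls. Neural stem cell markers summed to 159922 to 193321 in heterozygous libraries and 94814 to 142703 in controls, but 7 of the 10 had negative log2 fold changes (median -0.49), 1 fell and none rose. The sum is carried by the abundant Vim, Fabp7 and Nes, the 3 with positive log2 fold changes. Erythroid markers summed to 13.4 to 25.3 in heterozygous libraries and 8.13 to 20.9 in controls, with Hbb-bt and Hba-a1 at 0 in all 5 libraries.

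Because the low level of Slc16a3 in this comparison selected the genes, their values are given as a description and without a test. Normalized counts are read counts divided by a size factor per library, and fold changes are heterozygous over control on the log2(normalized count + 1) scale. All 10 genes passed the filter of a mean of at least 10. Past the threshold of the fit over all 16411 genes tested (limma, adjusted p under 0.05) were 2 of them, Slc16a3 and Pdk1, both lower, where the share of all tested genes called lower was 0.944% and the share called in either direction 2.84%. The groups did not overlap for 8 of the 10, with 6 lower and 2 higher in heterozygous libraries, where they did not overlap for 46.7% of all tested genes, 23.3% lower and 23.4% higher. The median log2 fold change of the 10 genes was -0.74, and that of all tested genes was 0.01. Since the rule used this contrast, nothing is read from these counts.

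**Figure D2:**
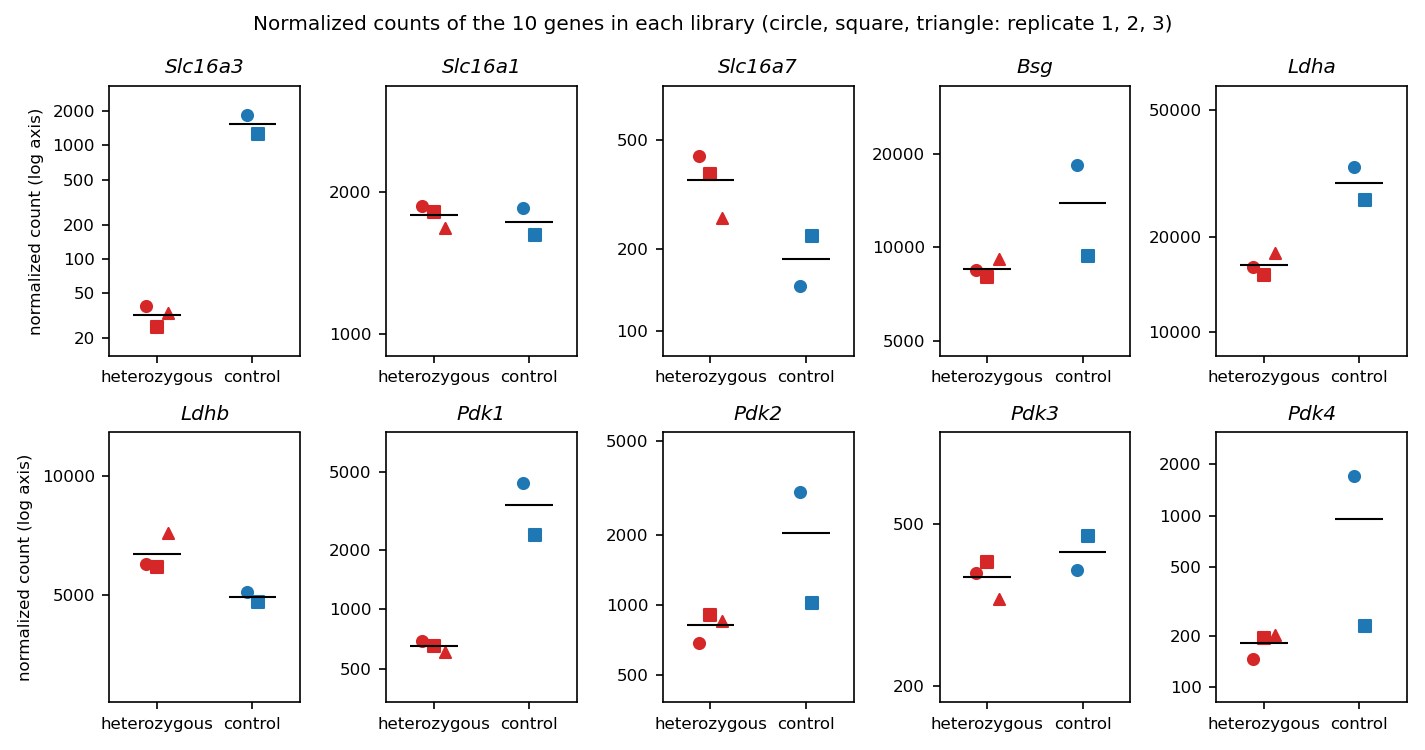
Normalized counts (y axis, logarithmic, with its own range in each panel) of the 10 genes in the 3 heterozygous (red) and 2 control (blue) libraries. Points are libraries and bars are group means. Slc16a3 lies between 24.9 and 38.3 in heterozygous libraries, far below both controls, and Slc16a1 and Pdk3 overlap between the groups.

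Slc16a3 encodes MCT4, the low-affinity exporter of highly glycolytic cells (ENSMUSG00000025161, mm10 chromosome 11 from 120948480 to 120960868, + strand). It had 38.3, 24.9 and 33.1 normalized counts in heterozygous libraries, against 1862 and 1263 in controls. These values rest on 36, 28 and 34 reads in heterozygous libraries and on 1600 and 1399 reads in controls. The heterozygous libraries lay close together and far below both controls. On average it had 32.1 ± 6.75 (SD, n = 3) in heterozygous and 1563 ± 423 (SD, n = 2) in control libraries, so that the control mean was 48.6 times the heterozygous mean. The log2 fold change was -5.55 (SE 0.28). Leaving out control replicate 1 gave -5.28, leaving out control replicate 2 gave -5.83, and it lay between -5.69 and -5.39 with any heterozygous library left out. The authors' deposited table gives -5.07 for this gene. No word of 50 bases of its transcripts stands in a transcript of another gene, so no close copy was found for it.

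Slc16a1 encodes MCT1, the broadly expressed transporter that carries lactate in either direction (ENSMUSG00000032902, chromosome 3 from 104638668 to 104658462, + strand). Its normalized counts were 1866, 1815 and 1681 in heterozygous libraries, against 1848 and 1620 in controls. The groups overlapped, and the log2 fold change was 0.05 (SE 0.13), with a range of -0.05 to 0.14 over the libraries left out. Slc16a7 encodes MCT2, the high-affinity transporter of neurons (ENSMUSG00000020102, chromosome 10 from 125219270 to 125389465, - strand). It had 439, 377 and 258 in heterozygous libraries, against 145 and 222 in controls. The groups did not overlap, but heterozygous replicate 3 and control replicate 2 lay near each other, and the log2 fold change was 0.95 (SE 0.30), or 0.65 with control replicate 1 left out and 1.26 with control replicate 2 left out. Neuron markers also differed, of which 8 of 15 rose and none fell in the fit over all genes, with summed counts as given above, and their part in the Slc16a7 value was not tested. Gm47862 overlaps 1.51% of the exonic bases of Slc16a7. In bulk RNA, fewer cells of a type and less RNA per cell cannot be told apart.

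Bsg, the chaperone of MCT1 and MCT4 (ENSMUSG00000023175, chromosome 10 from 79704491 to 79711969, + strand), had 8418, 8032 and 9151 normalized counts in heterozygous libraries, against 18367 and 9333 in controls. The 2 controls differed 1.97-fold, and control replicate 2 lay just above the highest heterozygous library. The log2 fold change was -0.62 (SE 0.28), and it was -0.13 when control replicate 1 was left out and -1.11 when control replicate 2 was.

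Relative to exon length, the transporter make-up differed between the groups. The scale used to compare genes, RPKM (reads per kilobase of exon, relative to the reads of the library), put Slc16a3 at 0.320, 0.209 and 0.273 in heterozygous libraries, against 15.2 and 10.3 in controls. Slc16a1 stood at 18.7, 18.3 and 16.6 in heterozygous libraries, against 18.1 and 15.9 in controls. Of the level summed over the 3 transporters, Slc16a3 made up 1.55%, 1.05% and 1.53% in heterozygous libraries, against 44.9% and 38.2% in controls. The share of Slc16a1 was 90.5%, 91.8% and 93.1% in heterozygous libraries, against 53.5% and 58.8% in controls. That of Slc16a7 was 5.35% to 7.95% in heterozygous libraries and 1.58% and 3.02% in controls. Slc16a1 thus exceeded Slc16a3 by 58.5, 87.5 and 61.0 times in heterozygous libraries, against 1.19 and 1.54 times in controls. The summed level was 19.5 ± 1.48 in heterozygous (SD, n = 3) and 30.4 ± 4.78 in control libraries (SD, n = 2).

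**Figure D3:**
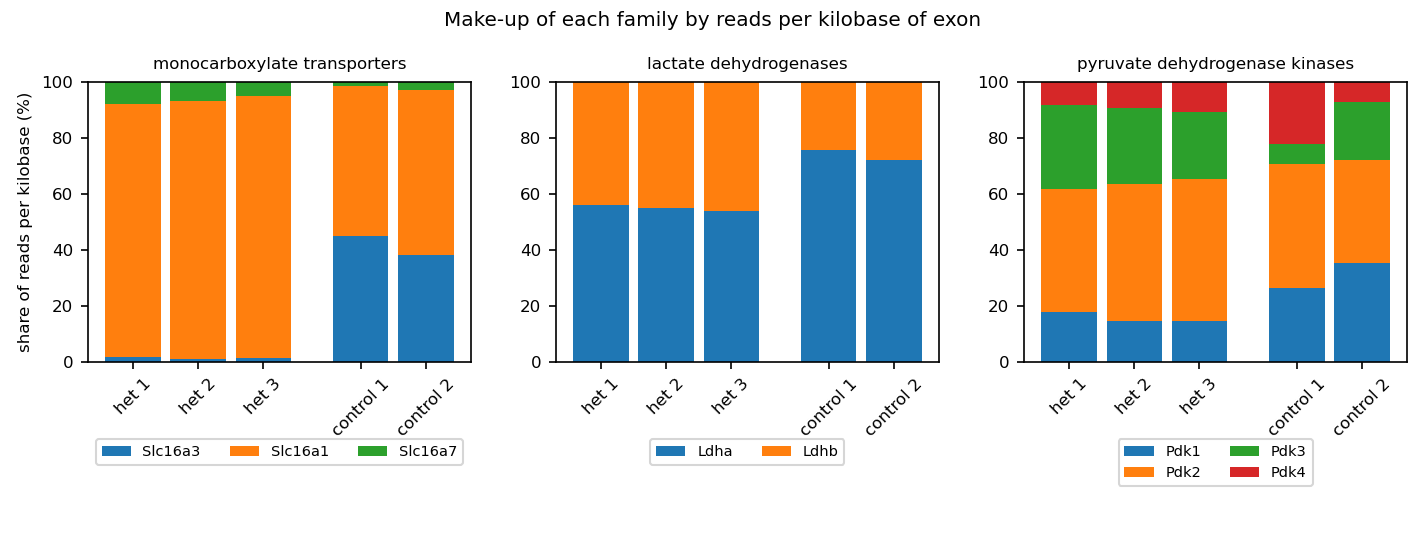
Share of each gene (y axis, percent of reads per kilobase of exon summed over the family) in each heterozygous (het) and control library, for transporters, dehydrogenases and kinases. Slc16a3 takes 1.05% to 1.55% of the transporter level in heterozygous libraries and 38.2% and 44.9% in controls, and Ldha takes 53.8% to 55.9% of the dehydrogenase level in heterozygous libraries and 72.1% and 75.5% in controls.

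Ldha and Ldhb differed in opposite directions. Ldha, the subunit of muscle-type lactate dehydrogenase (ENSMUSG00000063229, chromosome 7 from 46841475 to 46855627, + strand), had 16043, 15120 and 17684 normalized counts in heterozygous libraries, against 33158 and 26033 in controls. All heterozygous libraries lay below both controls, with means of 16283 ± 1299 in heterozygous (SD, n = 3) and 29595 ± 5038 in control libraries (SD, n = 2). The log2 fold change was -0.85 (SE 0.17), -0.68 with control replicate 1 left out and -1.03 with control replicate 2 left out. Ldhb, the heart-type subunit (ENSMUSG00000030246, chromosome 6 from 142490249 to 142507957, - strand), had 6001, 5897 and 7189 in heterozygous libraries, against 5090 and 4784 in controls. The heterozygous libraries were all higher, by a log2 fold change of 0.36 (SE 0.14) that stayed between 0.27 and 0.41 with any library left out.

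Per kilobase of exon, Ldha exceeded Ldhb by 1.27, 1.22 and 1.17 times in heterozygous libraries, against 3.09 and 2.58 times in controls. Ldha was thus the larger part in every library, at 54.9% ± 1.03 of the summed level in heterozygous (SD, n = 3) and 73.8% ± 2.46 in control libraries (SD, n = 2). Of the 50-base words of Ldha 9.26%, and of those of Ldhb 21.0%, also stand in transcripts of other genes. The shared words of Ldha are spread over 328 other genes, and those of Ldhb stand in 1, Gm5514. The genes that hold at least 2% of the words of Ldha (Gm5452, Ldha-ps2 and Gm9247) or Ldhb (Gm5514) had 4 to 21 reads per library. That is far fewer than Ldha or Ldhb had. How the authors' counting treated reads that fit several genes is not given in the sources used here. Between the coding sequences of Ldha and Ldhb, taken as the longest reading frames, 73.0% of aligned bases were identical, and the longest identical run was 18 bases.

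Pdk1 had the lowest log2 fold change of the kinases in the limma fit with all libraries. The control mean over the heterozygous mean was 5.23 for Pdk1 and 5.32 for Pdk4. Pdk4 was also slightly lower by edgeR (-2.43 against -2.40 for Pdk1) and DESeq2 (-2.44 against -2.40). Pdk1 encodes the kinase that hypoxia induces (ENSMUSG00000006494, chromosome 2 from 71873224 to 71903858, + strand). It had 690, 654 and 607 normalized counts in heterozygous libraries, against 4403 and 2400 in controls. The heterozygous libraries were within a narrow range and the lower control was still far above them. It averaged 650 ± 41.6 in heterozygous (SD, n = 3) and 3402 ± 1417 in control libraries (SD, n = 2), and the log2 fold change of -2.32 (SE 0.26) was -1.88 with control replicate 1 left out and -2.76 with control replicate 2 left out.

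Pdk2, the most widely expressed kinase of the family (ENSMUSG00000038967, chromosome 11 from 95026258 to 95041354, - strand), had 690, 909 and 855 in heterozygous libraries, against 3031 and 1021 in controls. Its controls differed 2.97-fold, and the lower of them was close to the heterozygous libraries. The log2 fold change of -1.11 (SE 0.43) was -0.33 with control replicate 1 left out and -1.90 with control replicate 2 left out. Pdk4, the kinase that fasting, glucocorticoids and fatty acids induce (ENSMUSG00000019577, chromosome 6 from 5483351 to 5496309, - strand), had 147, 195 and 202 in heterozygous libraries, against 1700 and 228 in controls. Its controls differed 7.47-fold, the widest gap among the 10 genes, and the log2 fold change of -1.79 (SE 0.77) was -0.34 with control replicate 1 left out and -3.24 with control replicate 2 left out. The authors' deposited table gives -1.18 for Pdk4. Pdk3, an X-linked kinase (ENSMUSG00000035232, chromosome X from 93764607 to 93832201, - strand), had 380, 404 and 328 in heterozygous libraries, against 386 and 467 in controls. The groups overlapped, heterozygous replicate 2, the library with Xist, held the highest of the heterozygous values, and the log2 fold change was -0.20 (SE 0.18), or -0.27 without that library.

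On the same scale, the 4 kinases summed to 22.1, 26.1 and 23.4 in heterozygous libraries, against 93.6 and 38.2 in controls. Pdk2 was the largest part in every library, with 43.9%, 49.1% and 50.6% in heterozygous libraries, against 44.4% and 36.8% in controls. Pdk1 took 17.8%, 14.4% and 14.6% in heterozygous libraries, against 26.2% and 35.1% in controls. Pdk3 took 24.0% to 29.9% in heterozygous libraries, against 6.99% and 20.7% in controls. The share of Pdk4, 8.42% to 10.8% in heterozygous libraries, lay between its 22.4% and 7.38% in controls. The coding sequences of the kinases were 67.0% to 69.4% identical in pairs, with identical runs of at most 29 bases.

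**Figure D4:**
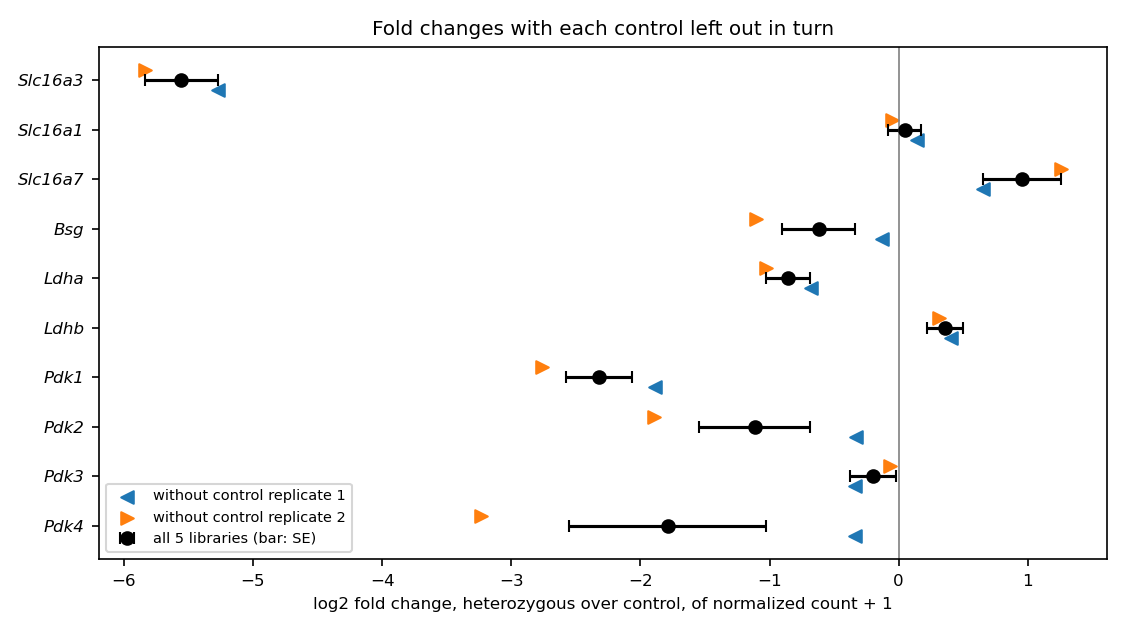
Log2 fold change of the 10 genes, heterozygous over control (x axis, of normalized count + 1). Black points use all 5 libraries with the SE as bar, and triangles leave out control replicate 1 or 2. Slc16a3 stays at -5.28 or below, whereas Pdk2, Pdk4 and Bsg come to -0.33, -0.34 and -0.13 without control replicate 1.

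The controls differed from each other in many of these values. Of the 10 genes, 8 were higher in control replicate 1 than in control replicate 2, Slc16a7 and Pdk3 being the others, with a median log2 difference of 0.45 against -0.02 over all tested genes. Only Pdk2 and Pdk4 of the 10 differed more than 2-fold between the controls, and 18.5% of all tested genes did so. The median log2 fold change of the 10 genes was -0.33 when control replicate 1 was left out and -1.07 when control replicate 2 was. Astrocyte markers, of which 3 of 10 fell in the fit over all genes and none rose, and oligodendrocyte markers, of which 1 of 11 fell, with sums of 59593 to 75736 in heterozygous libraries and 61284 and 87639 in controls, are lists of cells that carry MCT4 or MCT1. Astrocyte marker sums were also higher in control replicate 1 (198221) than in control replicate 2 (150535), and their part in the members' values was not tested. Microglia markers summed to 70.3 to 355 in heterozygous libraries and 57.0 and 95.7 in controls, and endothelial and pericyte markers to 1475 to 2670 in heterozygous libraries and 491 and 1459 in controls.

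In the order of levels per kilobase of exon in heterozygous libraries, Ldha (218 ± 15.1), Bsg (208 ± 11.7) and Ldhb (179 ± 18.3) came first. Neighbours among these 3 overlapped in range. Then came Slc16a1 (17.9 ± 1.12), Pdk2 (11.5 ± 1.60), Pdk3 (6.42 ± 0.734), Pdk1 (3.70 ± 0.267), Pdk4 (2.28 ± 0.368), Slc16a7 (1.34 ± 0.353) and Slc16a3 (0.267 ± 0.0557), each apart from its neighbours in range (SD, n = 3). In controls, where Ldha and Bsg overlapped in range, Ldha (388 ± 65.3), Bsg (331 ± 152) and Ldhb (136 ± 5.73) also came first. They were followed by Pdk2 (27.8 ± 19.4), Pdk1 (19.0 ± 7.87), Slc16a1 (17.0 ± 1.55), Slc16a3 (12.7 ± 3.43), Pdk4 (11.9 ± 12.8) and Pdk3 (7.23 ± 0.977), and Slc16a7 (0.674 ± 0.200) was last (SD, n = 2). From Pdk2 down to Slc16a3 and from Slc16a3 down to Pdk3, neighbouring ranges in controls overlapped, except that both controls held more Slc16a1 than Slc16a3. The lengths take in all annotated exons of a gene, so that a gene with long exons that these cells skip is understated.

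The profile of Slc16a3 over the 5 libraries was set against those of 12205 other named genes with a mean of at least 50, by the Euclidean distance between log2 values centred on each gene's mean. The nearest were Mgarp at 1.42, Car9 at 1.98, Bmp4 at 2.30, Ndufa4l2 at 2.30 and Vegfa at 2.72. All but Vegfa reached the mean of 50 only through the controls. In heterozygous libraries Mgarp had 8, 1 and 6 reads, Bmp4 9, 29 and 8, and Ndufa4l2 5, 0 and 3. The distances of Mgarp, Bmp4 and Ndufa4l2 therefore depend on a few reads and on the added count of 1. Mgarp had 8.52, 0.890 and 5.85 normalized counts in heterozygous libraries, against 254 and 126 in controls. Vegfa, an angiogenic growth factor and the most abundant of the 5, had 2902, 3170 and 2791 in heterozygous libraries, against 47150 and 15924 in controls. In both genes all heterozygous libraries lay far below the controls, whose values differed 2.02-fold for Mgarp and 2.96-fold for Vegfa. Those of Car9, a membrane carbonic anhydrase, differed 10.2-fold. Among the members, Pdk1 ranked 18 by this distance, Pdk4 101, Pdk2 302, Ldha 514, Bsg 1038, Pdk3 3820, Slc16a1 6149, Ldhb 9265 and Slc16a7 11497. The distance is not scaled, so it also grows with a difference in the size of change. Seen from Pdk1, Slc16a3 ranked only 11142 of the 12205 genes. The profile of Pdk1 was nearest to those of Ero1l at 0.34, Draxin at 0.41, Tgfbr3l at 0.44, Bnip3 at 0.44 and Ebf4 at 0.47. Draxin, an axon guidance protein, had 266, 281 and 282 in heterozygous libraries, against 1479 and 1134 in controls. These distances rest on the same 5 libraries as the fold changes and describe them only.

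The wider pathway was read from 7 lists of 84 genes, chosen with earlier results of these data known. Their p-values are therefore no independent test. Of the 84 genes, 76 were tested. None rose and 2 fell, both of the 19 regulators, with a median log2 fold change of 0.16 beside 0.01 for all genes. The share of all tested genes called was 1.9% higher and 0.944% lower. Egln3, an oxygen-sensing prolyl hydroxylase that marks the hypoxia-inducible factors for degradation and is itself their target, had 701, 673 and 678 normalized counts in heterozygous libraries, against 1529 and 1852 in controls. It fell by 1.30 on the log2 scale (SE 0.14, limma adjusted p = 0.0258). Egln1, the main enzyme of this kind, had 1934, 1911 and 2100 in heterozygous libraries, against 3614 and 3589 in controls. It fell by 0.86 on the log2 scale (SE 0.12, limma adjusted p = 0.0353). All heterozygous libraries lay below both controls in either gene. The value of Egln3 was -1.44 with control replicate 1 left out and -1.16 with control replicate 2 left out, and that of Egln1 was -0.86 with control replicate 1 left out and -0.87 with control replicate 2 left out. With any heterozygous library left out neither gene passed (limma adjusted p = 0.185 to 0.229), with log2 fold changes of -1.32 to -1.29 for Egln3 and -0.91 to -0.84 for Egln1. With library weights Egln1 did not pass either (limma adjusted p = 0.0689).

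**Figure D5:**
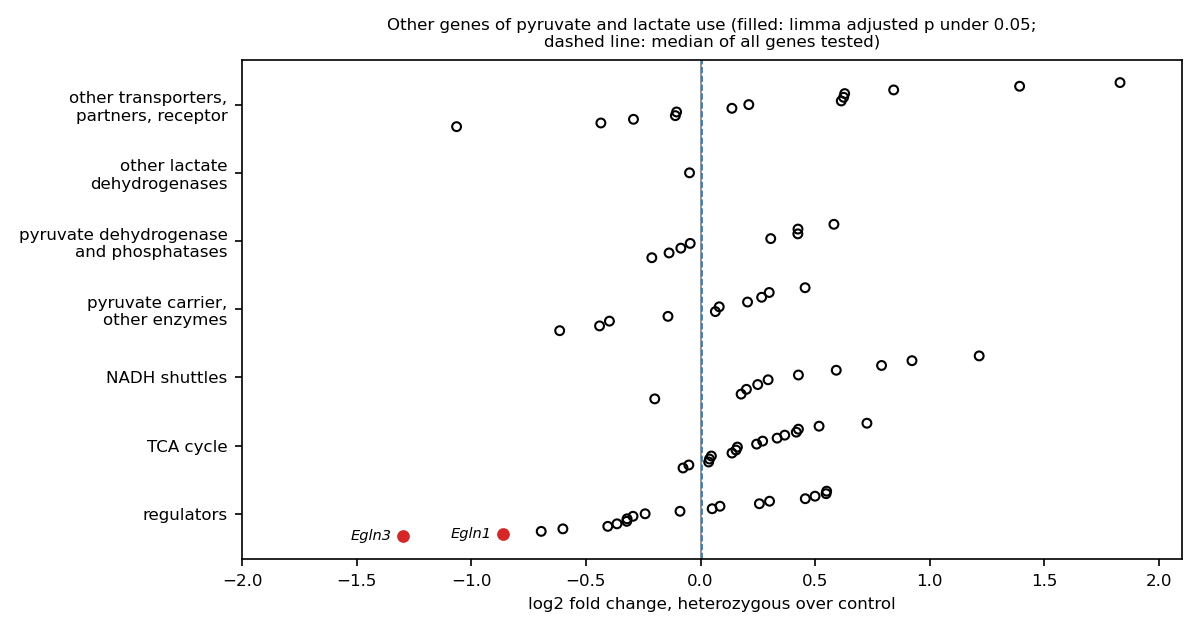
Log2 fold change, heterozygous over control (x axis), of the 76 tested genes of 7 pathway lists (rows, a point per gene, Mdh2 in 2 rows). Filled points passed the limma test and open points did not. Egln3 at -1.30 and Egln1 at -0.86 are the filled points. Above 0 lie 9 of 10 shuttle genes and 14 of 16 genes of the tricarboxylic acid cycle, beside 8294 of all 16411 tested genes. The medians of these lists, 0.36 and 0.20, were 0.06 and 0.08 without control replicate 1.

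Of the genes that carry out the reactions, 57 in 6 lists, none passed by limma in either direction. At an unadjusted p under 0.05, 12 were higher and 2 lower, where 2257 of all 16411 genes were higher and 2029 lower. The adjusted counts were 0 by edgeR, beside 240 higher and 169 lower over all genes. By DESeq2 they were 4 higher and 1 lower, beside 1174 higher and 1151 lower over all genes. With control replicate 1 left out, 6 of the 57 were called higher and 2 lower, beside 1509 higher and 1245 lower over all genes. With control replicate 2 left out, 26 were called higher and 8 lower, beside 4477 higher and 3868 lower over all genes. In these fits the control group is 1 library, which is assumed to vary like the heterozygous libraries, and all spread comes from those. Among 13 other transporters, partners and receptors, the value with the smallest p was that of Nptn, a glycoprotein related to basigin, with 5298, 5002 and 5248 normalized counts in heterozygous libraries, against 3097 and 3649 in controls (log2 fold change 0.62, SE 0.13, limma adjusted p = 0.0554). Next was Slc16a8, the MCT3 gene known from retinal pigment epithelium, at 27.5 ± 5.29 in heterozygous (SD, n = 3) and 58.6 ± 12.6 in control libraries (SD, n = 2), a log2 difference of -1.06 (SE 0.33, limma adjusted p = 0.117). The lactate receptor gene Hcar1 had no read in any library.

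In the pyruvate dehydrogenase complex and its phosphatases, 4 of 8 fold changes were positive. The smallest p values were those of Pdhb, a subunit of its first enzyme, at 0.42 (SE 0.13, limma adjusted p = 0.117), and Dld, its dihydrolipoamide dehydrogenase, at 0.43 (SE 0.14, limma adjusted p = 0.137). Pdhb had 5149, 5187 and 5500 normalized counts in heterozygous libraries, against 3605 and 4287 in controls. Among 10 genes of the pyruvate carrier and other pyruvate enzymes, Pck2, the mitochondrial phosphoenolpyruvate carboxykinase, had 1130, 1250 and 1195 in heterozygous libraries, against 1925 and 1727 in controls (-0.61, SE 0.13, limma adjusted p = 0.0559). The carrier subunit Mpc2 differed by 0.27 (SE 0.15, limma adjusted p = 0.301).

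The NADH shuttles regenerate the cytosolic NAD that lactate formation otherwise supplies. Gpd1, the glycerol phosphate dehydrogenase of the cytosol, had 9003, 7501 and 7599 normalized counts in heterozygous libraries, against 2589 and 4590 in controls, and did not pass (1.22, SE 0.25, limma adjusted p = 0.0554). An antisense gene, Gm16537, overlaps its exons, and since the use of strand in counting is not stated, their reads cannot be told apart; opposite-strand genes also overlap 42.2% of Ldhd (Znrf1), 5.58% of Nptn, 2.03% of Mdh1 and 0.679% of Pck2. Mdh1, the malate dehydrogenase of the cytosol, had 8732, 8463 and 10672 in heterozygous libraries, against 4222 and 6766 in controls (0.79, SE 0.23, limma adjusted p = 0.103). In the tricarboxylic acid cycle, Sucla2, a succinyl-CoA ligase subunit, had the smallest p (0.52, SE 0.14, limma adjusted p = 0.0944), followed by the fumarase gene Fh1 (0.42, SE 0.16, limma adjusted p = 0.164). The median log2 fold changes were 0.36 over the 10 shuttle genes and 0.20 over the 16 cycle genes, and they were 0.06 and 0.08 without control replicate 1. Ldhd was the only other lactate dehydrogenase with enough reads to be tested (-0.05, SE 0.41, limma adjusted p = 0.947).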

How the data were processed

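The submitters' processing notes name STAR, DESeq2 and the build mm10. Versions, annotation, counting tool and use of strand are not stated there. The deposited table lists 54532 genes, each with a normalized signal per library that the authors deposited, which the values show to be read counts divided by 1 size factor per library. Within a tolerance of 0.001 read, 100% of these values were whole multiples of a library's smallest value, and the reads were recovered from them. The deposited table also gives the authors' log2 fold change, its standard error, a Wald score, a p-value and an adjusted p-value, per the file headers. Only the log2 fold change was used.

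Values were tested as log2(normalized count + 1) with limma 3.58.1 in R 4.3.3, with an intensity trend, over 16411 genes (mean of 10 or more), two-sided, heterozygous against control, with Benjamini-Hochberg adjustment over all of them and a threshold of 0.05. edgeR 4.0.16 (quasi-likelihood) and DESeq2 1.42.0 on recovered reads, scaling, pseudocounts, filters, library weights, a replicate block and each library left out were alternatives. Levels between genes are recovered reads per kilobase of exon (GENCODE vM21, mm10), scaled by library reads (RPKM). Sequence identity was computed with Biopython 1.88. The members and lists were chosen with earlier results of these data known. Named genes were the members, list genes past the threshold or otherwise the 2 of a list with the smallest p, the 5 nearest profiles of Slc16a3 and of Pdk1, Arid1b and sex-linked genes, and Hcar1 was named after its values were seen. No library column was left unused.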

Additional observations from a re-analysis of the deposited data

How the results depend on the processing

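Of the members, Slc16a1 alone changed direction under an alternative run, to -0.05 without control replicate 2, and Slc16a3 ranged from -5.83 to -5.28. Limma with all 5 libraries called 311 genes higher and 155 lower. With DESeq2, 1174 genes were higher and 1151 lower, with 1 member higher and 4 lower, and 5 other pathway genes higher and 4 lower. With library weights the genes called were 79 and 38, with 1 pathway gene lower, and without a filter 1 pathway gene was higher. edgeR called 240 and 169 genes. Leaving out a library gave 0 to 4477 genes higher and 0 to 3868 lower, 0 to 1 member higher and 0 to 6 lower, 0 to 32 pathway genes higher and 0 to 15 lower, and a median of the members from -1.07 to -0.33. The highest of these counts came without control replicate 2, when the control group is 1 library assumed to vary like the heterozygous ones. Without heterozygous replicate 1 or 3 limma called 0 genes and without heterozygous replicate 2 it called 1 (2347, 2670 and 2578 at an unadjusted p under 0.05), when 2 libraries a group remained. Ldhd turned to 0.64 without control replicate 1 and was -0.73 without control replicate 2. Znrf1 overlaps its exons on the other strand, and the cause was not tested.

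Replicate numbers carry no stated pairing, and deviations from group means correlated at 0.028 for number 1 and -0.040 for number 2. Since the deviations of 2 controls are equal and opposite, each correlation with control replicate 2 is that with control replicate 1 with its sign turned. Heterozygous replicate 3, without a control of its number, gave -0.066 and 0.066. No conclusion on pairing is drawn from these values. With the replicate block limma called 0 genes higher and 1 lower (2450 at an unadjusted p under 0.05), 1 member lower, and 0 other pathway genes in either direction (adjusted p = 0.107 for Egln3 and 0.151 for Egln1). Heterozygous replicate 3 has no control of its number and adds nothing to this fit. Its fold changes equal those of the run without that library (-5.59 for Slc16a3 in both). The level of Slc16a3 in heterozygous libraries rests on 28 to 36 reads.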
